A study of Mus musculus with 41 samples.

Results

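The genes described here encode 5 bone morphogenetic proteins (BMP ligands; Bmp2, Bmp4, Bmp5, Bmp6 and Bmp7) and 5 secreted proteins that bind ligands of this family outside the cell (Nog, Grem1, Chrd, Bmper and Fst). They were taken by name, 10 of 21887 protein-coding genes, with earlier results of these data known. Comparisons of the members with all genes below are therefore a description. Each gene was followed at its promoter, along its body and in 100 kb of flanking sequence on each side. The measurements come from chromatin immunoprecipitation with sequencing of 6 histone marks in chondrocytes, the cells of cartilage, sorted by flow cytometry from mouse embryos. The libraries labelled PC (proliferating chondrocytes) came from cartilage of E13.5 embryos that carried the Cre transgene Tg(Col2a1-cre)1Star, driven by the Col2a1 promoter, together with the reporter allele Gt(ROSA)26Sortm1(EYFP)Cos, from which Cre switches on a yellow fluorescent protein. The libraries labelled HC (hypertrophic chondrocytes) came from E15.5 embryos that carried the transgene Tg(Col10a1-cre)1427Vdm, with Cre under the Col10a1 promoter, and the same reporter allele. Cell type, age and strain therefore change together and cannot be told apart. Each mark has 3 PC and 2 HC libraries, 30 in all. A Cre reporter marks descendants as well as cells that still use the driver, and nothing in the labels ties the libraries of a group to separate litters. The p-values below therefore reflect spread among these particular libraries, part of which may be technical.

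BMP ligands are dimers that bring type I and type II receptors together at the cell surface, and the receptors phosphorylate Smad proteins that enter the nucleus. Noggin, gremlin and chordin bind ligands and keep them from receptors, follistatin binds activins and some BMPs, and Bmper binds BMPs and has been seen both to block and to promote their signal. In the growth plate BMP signalling supports chondrocyte proliferation and maturation, and ligands made in one zone or in the perichondrium act on cells of another. Active promoters carry H3K4me3, H3K9ac and H3K27ac, enhancers carry H3K27ac, transcribed gene bodies carry H3K36me3, Polycomb places H3K27me3 on repressed genes, and H3K9me3 marks heterochromatin.

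The deposited lists give region coordinates (mouse build mm10) with no height or read count, so the depth behind a region is unknown and every value below is the percent of a window that lay inside regions. The lists of 1 mark differed in length, from 46.1 Mb in HC replicate 5 to 98.4 Mb in PC replicate 3 for H3K27ac and from 63.7 to 99.0 Mb for H3K27me3, and a longer list covers more of any window. At the driver gene itself, the HC-labelled libraries went against their label for H3K27me3. H3K9ac there went with the label, and H3K27ac and H3K4me3 overlapped between labels. H3K27me3 covered the Col10a1 promoter by 100% and 99.5% in the HC-labelled libraries and by 0% in all 3 PC libraries, while H3K27ac there was 30% and 0% against 5%, 0% and 0%. H3K9ac there was 5% and 15% in the HC-labelled libraries and H3K4me3 was 0% and 10%, against 0% in all PC libraries of both marks. Of 10 hypertrophic genes, 2 promoters carried H3K27ac in each HC-labelled library and 5 to 6 in the PC libraries, with a mean cover over the list of 5% and 9.12% against 22.2% to 31.4%. Mmp13, Spp1 and Ibsp had none in any of the 5 libraries, and Ihh had 15% in PC replicate 5 alone. Of 12 chondrocyte genes, 10 carried H3K27ac in each HC-labelled library and 12 in each PC library, with mean cover of 39.9% and 52.6% against 77.3% to 88.4%. For H3K27me3 the same list stood at 6 and 8 of 12 (39.1% and 47%) against 3 (16.5% to 20.8%). Its genes were unlike for that mark. Sox9, the chondrocyte master regulator, had 98.0% and 88.0% against 0%. Col9a1, Col11a1, Matn1 and Hapln1 had 0% in all 5 libraries, and Acan had 99.4% to 100% in all 5. Muscle genes carried H3K27ac at 6 and 8 of 10 promoters in the HC-labelled libraries (mean cover 12.8% and 27.6%) and at 2 to 3 in the PC libraries (3.22% to 7%). Epidermal genes carried it at 8 and 9 of 12 (25.6% and 20.9%) against 6 (9.23% to 13.4%). For H3K27ac, the lists for perichondrium, tendon and joint (9 against 8 of 10), endothelium (5 against 2 to 4 of 8) and blood (2 against 1 of 8) had ranges of mean cover that overlapped between labels. For H3K27me3, the list for perichondrium, tendon and joint stood at 7 of 10 (63.6% and 64%) in the HC-labelled libraries against 4 of 10 (30.5% to 40%), and endothelium at 35.6% and 35% against 27.5% to 30.6%. Epidermal genes stood at 8 of 12 (62.2% and 61%) against 7 (55.9% to 57.5%), and hypertrophic genes at 4 of 10 (30.1% and 30.3%) against 1 (6% to 10%). Muscle genes were lower, at 3 and 4 of 10 (30% and 34%) against 4 (36.8% to 38.8%), and blood genes were at 0 of 8 in all libraries. The name HC is therefore used only as the label of the libraries, and the part that other cell types play in any difference below was not tested.

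Start sequences are shown for 3 genes with unlike promoters: Bmp5, which carried no H3K27me3, Chrd, whose H3K27me3 cover did not overlap between labels, and Grem1, which was fully covered by it. Each sequence runs 5′ to 3′ from 250 bases before to 50 bases after the RefSeq start (GRCm38.p6, the same assembly as mm10), with every CG dinucleotide in capitals. Bmp5 lies on the plus strand at chr9:75775115-75775414, Chrd on the plus strand at chr16:20732877-20733176 and Grem1 on the minus strand at chr2:113758599-113758898.
Bmp5: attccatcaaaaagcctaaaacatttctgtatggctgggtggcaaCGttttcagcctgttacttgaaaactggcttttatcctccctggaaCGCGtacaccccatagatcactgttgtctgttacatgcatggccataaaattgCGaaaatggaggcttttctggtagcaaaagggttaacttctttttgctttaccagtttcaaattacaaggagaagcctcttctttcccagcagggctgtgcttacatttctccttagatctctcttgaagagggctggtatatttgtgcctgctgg
Chrd: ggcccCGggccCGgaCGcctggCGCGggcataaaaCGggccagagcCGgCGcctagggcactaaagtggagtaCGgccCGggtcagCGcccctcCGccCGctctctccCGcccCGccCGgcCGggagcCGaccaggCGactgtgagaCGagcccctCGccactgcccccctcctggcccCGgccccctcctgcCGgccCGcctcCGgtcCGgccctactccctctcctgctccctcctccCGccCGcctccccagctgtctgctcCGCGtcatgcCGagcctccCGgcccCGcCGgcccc
Grem1: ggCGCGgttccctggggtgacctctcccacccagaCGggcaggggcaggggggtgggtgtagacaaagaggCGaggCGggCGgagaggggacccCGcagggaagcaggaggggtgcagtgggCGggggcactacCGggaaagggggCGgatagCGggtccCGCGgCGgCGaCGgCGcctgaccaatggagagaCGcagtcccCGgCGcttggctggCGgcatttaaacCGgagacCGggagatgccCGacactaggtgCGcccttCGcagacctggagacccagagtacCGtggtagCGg
The Bmp5 stretch holds 4 CG dinucleotides in 300 bases at 43.3% G and C, below the median of 13 over 17492 RefSeq promoters. Chrd holds 34, more than 90.4% of those promoters, and Grem1 holds 28, more than 81.7%. Of the other members in the table, Bmper holds 31, Bmp6 27 and Bmp4 12, and Bmp2, Bmp7, Nog and Fst have no entry. The GC box GGGCGG, read on both strands with overlapping matches counted, occurs 4 times in Chrd, 3 times in Grem1, once each in Bmp4, Bmp6 and Bmper and 0 times in Bmp5, and 45.9% of all promoters hold it. The letters TATAAA, whose matches cannot overlap a GC box, occur in none of the 6 sequences and in 13.3% of all promoters.

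All 10 promoters carried H3K4me3 in every library. A promoter is the window from 2 kb before to 2 kb after the gene start and counts as marked from 200 bp of cover. For Bmp2, Bmp7 and Fst the start was the gene end with H3K4me3, and for Nog both ends were used because both carry it. The presence of H3K4me3 at these genes was thus partly fixed by the choice of window. H3K9ac and H3K27ac marked all 10 apart from Grem1, which had none in 1 library of each. H3K27me3 marked 9 in at least 2 libraries, but was absent from Bmp7 in all 3 PC libraries, from Bmp2 in PC replicate 6 and from Chrd in PC replicate 8. The difference between labels was tested for each mark by fitting limma to the covered percent of every gene with cover in 2 or more libraries, and p-values were adjusted by Benjamini and Hochberg's method. For H3K27me3, 194 of 5038 genes (3.85%) were called, 168 higher and 26 lower in the HC-labelled libraries. At equal covered length that split turned to 74 higher and 190 lower, and over autosomal genes at equal autosomal covered length it was 95 higher and 49 lower. Bmp7 was the 1 member among those called, but it met the filter only through the HC-labelled libraries in which it was covered. With genes covered in 1 library added, 33 genes were called, 19 higher and 14 lower, and 0 of them were members. No member was called for H3K4me3 (0.00713% of 14031 genes), H3K9ac (0.00749% of 13344) or H3K27ac (0.0218% of 13740), although 151, 251 and 378 genes were higher and 184, 503 and 761 lower when the 0.05 threshold was put on unadjusted p-values. These became 227, 269 and 294 higher and 127, 287 and 394 lower at equal covered length. A gene marked in every library of 1 label and in no library of the other is called PC-only or HC-only. Bmp7 was HC-only for H3K27me3, as were 5.12% of 4961 genes marked in at least 2 libraries (7.26% in either direction), which is a description, since the minimum of 2 libraries and the call use the same values. No member was called so for H3K4me3 (0.401% of genes), H3K9ac (1.27%) or H3K27ac (1.77%).

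**Figure D1:**
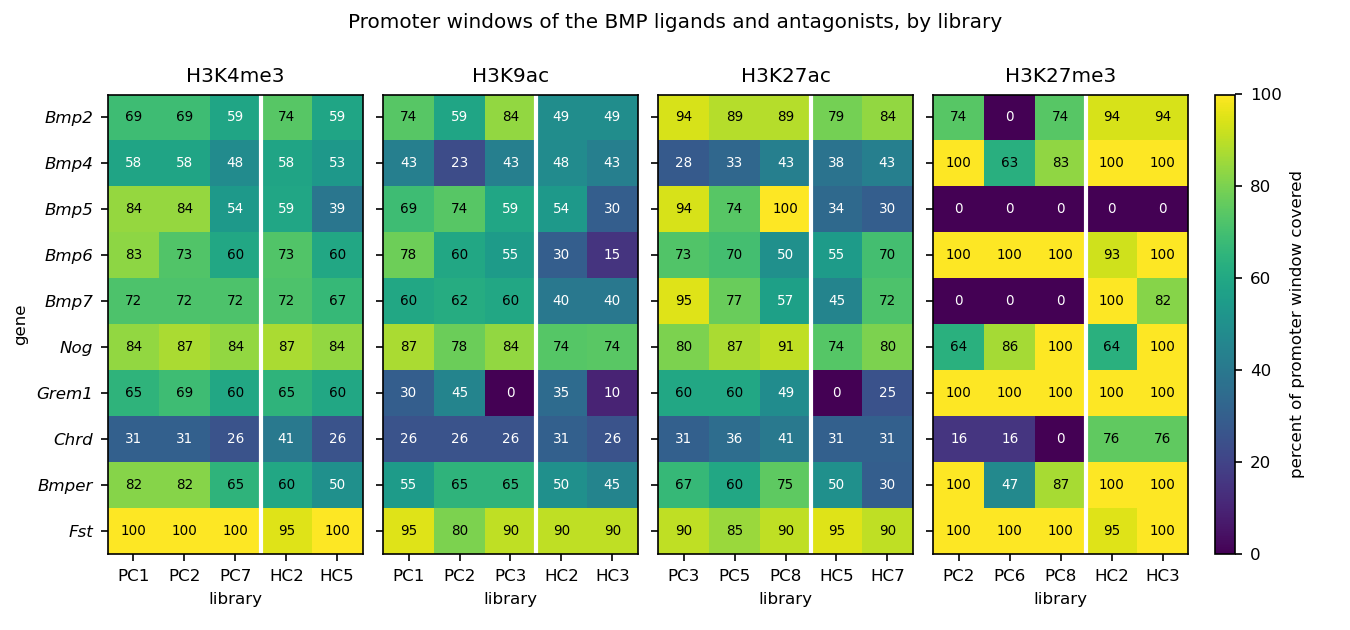
Percent of each promoter window covered by regions of 4 marks (colour and printed value, 0 to 100), with genes as rows, libraries as columns and a white line between PC-labelled and HC-labelled libraries. H3K27me3 is at 0 for Bmp7 in all 3 PC libraries and at 100 and 82 in the HC-labelled ones, while Bmp5 is at 0 in all 5.

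Without a threshold on p, libraries of both labels can be compared for overlap. For H3K9ac, both HC-labelled libraries lay below all 3 PC libraries at 6 of 10 members (Bmp2, Bmp5, Bmp6, Bmp7, Nog and Bmper), against 10.1% of all genes tested, and the median difference was -11.5 percentage points over the members and -1.81 over all genes. At equal covered length the same count was 6 of 10, against 7.16% of genes. For H3K27ac this held at 4 of 10 (Bmp2, Bmp5, Grem1 and Bmper) against 12.5% of genes, at equal covered length at 3 of 10 against 8.93%, and for H3K4me3 at Bmper alone, against 4.02% of genes. For H3K27me3, both HC-labelled libraries lay above all 3 PC libraries at 3 of 9 members (Bmp2, Bmp7 and Chrd), against 780 of 5038 genes. At equal covered length it was again 3 of 9, against 7.54% of genes. Genes had to be covered in 2 or more libraries, which Bmp7 met only through both HC-labelled ones. Its lack of overlap was therefore fixed by the filter, and these counts are a description.

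Among the ligands, Bmp7 (chr2:172868012-172940321), a ligand needed for kidney and eye development and made in many epithelia, had the largest difference between labels in H3K27me3. Its promoter was covered by H3K27me3 at 0% in PC replicates 2, 6 and 8 and at 100% and 82.0% in HC replicates 2 and 3. The labels did not overlap, with means of 0% ± 0 (SD, n = 3) and 91.0% ± 12.8 (SD, n = 2), and limma gave a difference of 91.0 percentage points (SE 8.43, adjusted p = 0.029), for a gene admitted to the test only by the libraries where it was high. The regions in the HC-labelled libraries were 10400 and 8000 bp long and shared 7200 bp, chr2:172934401-172941600, from -1279 to 5921 bp relative to the gene start. The call ended when genes covered in only 1 library were added (adjusted p = 0.108, in a range of 9.87e-05 to 0.108 over 11 alternatives). With either HC-labelled library left out the gene was covered in 1 library and was not tested.

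**Figure D2:**
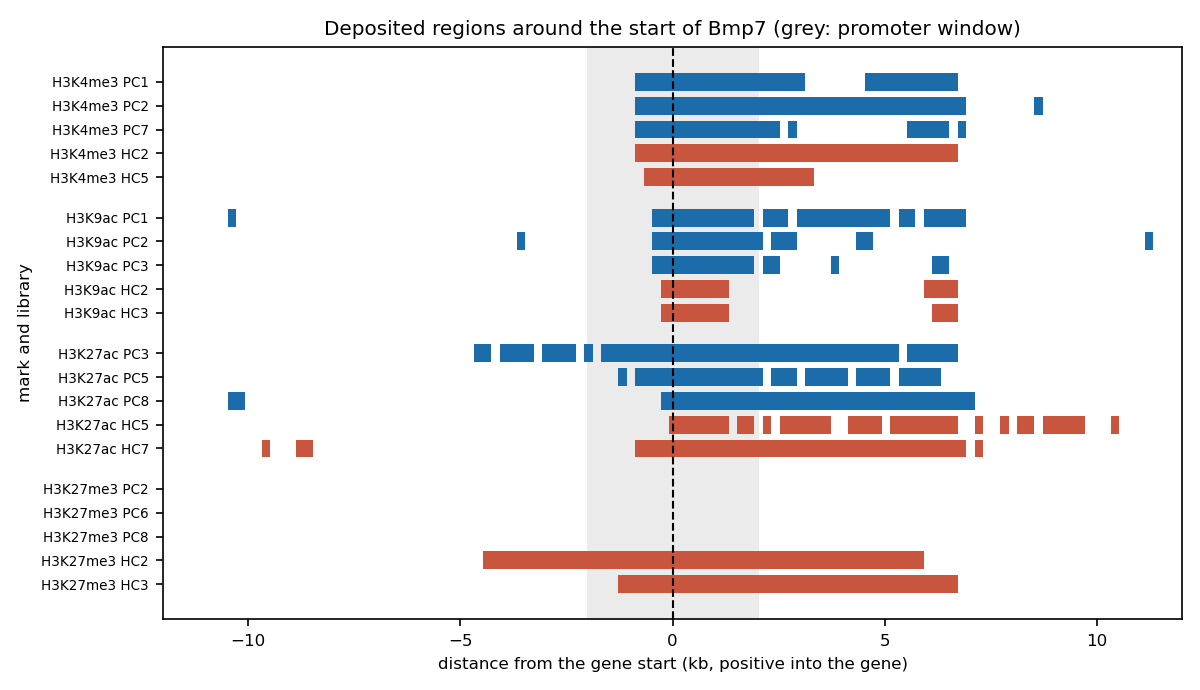
Deposited regions within 12 kb of the Bmp7 start as bars, 1 line a library (blue PC-labelled, red HC-labelled), with distance from the start in kb on the horizontal axis and the promoter window in grey. H3K27me3 bars occur in the HC-labelled libraries only within this stretch, over bars of H3K4me3 in all 5 libraries.

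The active marks at Bmp7 stayed in every library. H3K4me3 covered 72.0% in each of the 3 PC libraries and 72.0% and 67.0% in the HC-labelled ones, which overlap. H3K9ac covered 60%, 62.0% and 60% in PC replicates 1, 2 and 3 and 40.0% in both HC-labelled libraries, so these did not overlap (difference -20.7 points, SE 5.81, limma unadjusted p = 0.00895, adjusted p = 0.563). With a window of 1 kb on each side limma called this difference (adjusted p = 0.0104, in a range of 0.0104 to 0.998 over 13 alternatives). H3K27ac ran from 57.0% to 95.0% in the PC libraries and was 45.0% and 72.0% in the HC-labelled ones, with overlap. The same promoter thus held H3K4me3, H3K9ac and H3K27ac regions in both labels and H3K27me3 regions in 1 label.

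Bmp5 (chr9:75775365-75900316), a ligand whose loss shortens the ear in mice, had no H3K27me3 at its promoter in any of the 5 libraries. H3K27ac covered 94.1%, 74.1% and 100% of the window in PC replicates 3, 5 and 8 and 34.1% and 30% in HC replicates 5 and 7. The labels did not overlap, with means of 89.4% ± 13.6 (SD, n = 3) and 32.1% ± 2.90 (SD, n = 2), a difference of -57.4 points (SE 9.15, limma unadjusted p = 0.000466, adjusted p = 0.207). H3K9ac covered 69.1%, 74.1% and 59.1% in the PC and 54.1% and 30% in the HC-labelled libraries, again without overlap (difference -25.4 points, SE 8.98, limma unadjusted p = 0.0254, adjusted p = 0.773). H3K4me3 was 84.1%, 84.1% and 54.1% against 59.1% and 39.1%, which overlap (difference -25.0 points, SE 10.5, limma unadjusted p = 0.0447, adjusted p = 1). The H3K4me3 region at the start was 8400, 8200 and 4400 bp long in the PC and 4400 and 2600 bp in the HC-labelled libraries. All 3 active marks at Bmp5 had lower means in the HC-labelled libraries, and none of the differences passed the adjusted threshold.

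**Figure D3:**
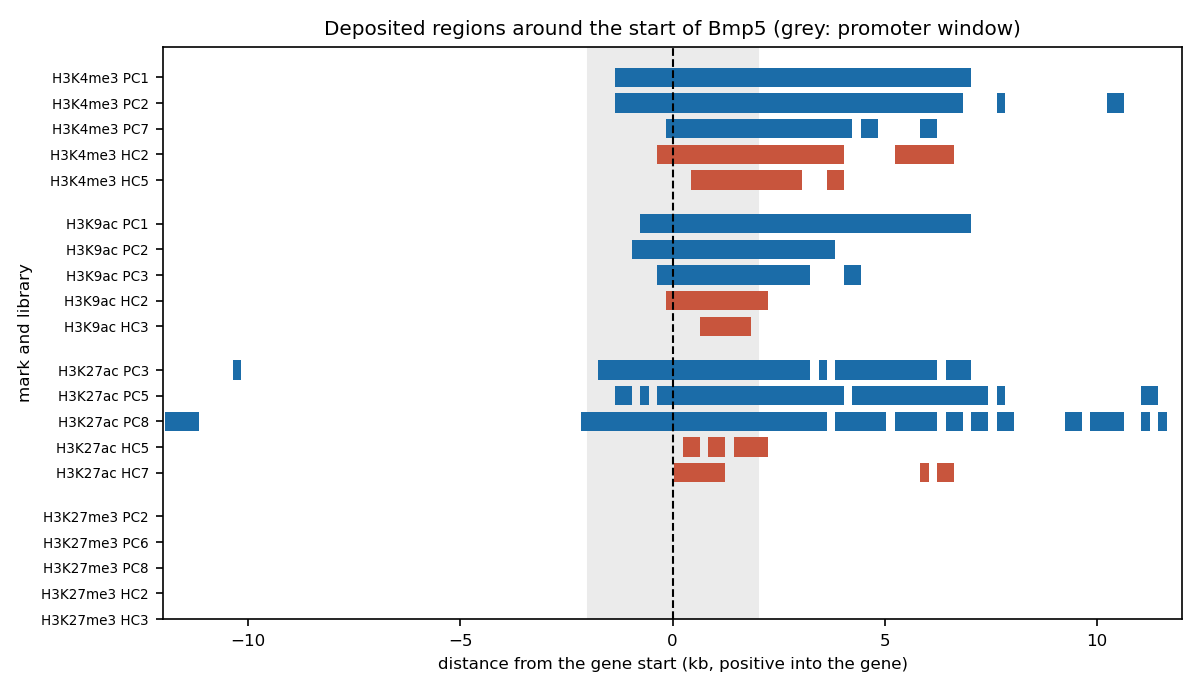
Deposited regions within 12 kb of the Bmp5 start as bars, 1 line a library (blue PC-labelled, red HC-labelled), with distance from the start in kb and the promoter window in grey. The H3K27ac bars of the PC libraries reach several kb into the gene and those of the HC-labelled libraries are short, and no H3K27me3 bar touches the promoter window.

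Bmp2 (chr2:133552159-133562896) is a ligand that chondrocytes and osteoblasts use in bone formation and fracture repair. H3K27me3 covered 74.0%, 0% and 74.0% of its promoter in PC replicates 2, 6 and 8 and 94.0% in both HC-labelled libraries. The labels did not overlap, but PC replicate 6, which had the shortest H3K27me3 list, stood far from the other PC libraries, and limma called the gene once that library was left out. H3K9ac covered 74.0%, 59.0% and 84.0% against 48.9% in both HC-labelled libraries, without overlap (difference -23.3 points, SE 8.32, limma unadjusted p = 0.0263, adjusted p = 0.782). H3K27ac was 94.0%, 89.0% and 89.0% against 79.0% and 84.0%, so cover stayed high in all 5 libraries.

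Bmp6 (chr13:38345716-38500314), a ligand known in prehypertrophic cartilage and in iron control by the liver, had both H3K4me3 and H3K27me3 over its start in all 5 libraries. H3K27me3 covered 100% in the 3 PC libraries and 92.9% and 100% in the HC-labelled ones, and 5600 bp around the start lay in regions of every library. H3K9ac covered 77.9%, 60% and 55.0% in the PC and 30% and 15.0% in the HC-labelled libraries, without overlap (difference -41.8 points, SE 8.94, limma unadjusted p = 0.00225, adjusted p = 0.447). H3K27ac did not follow, at 72.9%, 70.0% and 50% against 55.0% and 70.0%. Bmp4 (chr14:46383525-46390669), the ligand closest to Bmp2 in sequence, had H3K27me3 at 100%, 63.3% and 83.3% against 100% and 100%, which overlap. Its H3K27me3 region was 7200, 3200 and 4800 bp long in the PC and 11200 and 8800 bp in the HC-labelled libraries. The active marks of Bmp4 overlapped between labels, with H3K27ac between 28.3% and 43.3% in all 5 libraries.

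Among the antagonists, Chrd (chr16:20731425-20742384) encodes chordin, which binds BMP ligands through cysteine-rich domains until tolloid proteases cut it. H3K27me3 covered 15.6%, 15.6% and 0% of its promoter window in PC replicates 2, 6 and 8 and 75.6% in both HC-labelled libraries. The labels did not overlap, and the difference of 65.2 points (SE 8.43, limma adjusted p = 0.0523) missed the threshold. It was called with a window of 1 kb on each side, with regions of at least 3 grid bins, and without PC replicate 2 or 8 (adjusted p = 9.87e-05 to 0.739 over 13 alternatives). The start used lies at 20731425, where the gene overlaps Thpo, while the RefSeq promoter table places the start further inside, at 20733127. Around that inner start H3K27me3 covered 58.2%, 58.2% and 38.2% in the PC and 100% in both HC-labelled libraries, a difference of 48.5 points (limma adjusted p = 0.118). There the mark was in every library of both labels, and the 2400 bp covered by both HC-labelled and no PC library lay just upstream, at chr16:20730401-20732800. H3K4me3 around the inner start covered 68.2%, 65.0% and 55.0% against 70.0% and 55.0%, and H3K27ac 55.0%, 70.0% and 55.0% against 45.0% and 60%, both with overlap.

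Grem1 (chr2:113748675-113758648) encodes gremlin, which binds BMP2, BMP4 and BMP7 and is needed for limb outgrowth. H3K27ac covered 60%, 60% and 48.8% of its promoter in PC replicates 3, 5 and 8 and 0% and 25% in HC replicates 5 and 7. The labels did not overlap (difference -43.8 points, SE 9.13, limma unadjusted p = 0.00213, adjusted p = 0.318), and the library at 0% had the shortest H3K27ac list. H3K27me3 covered 100% and H3K4me3 60% to 68.8% of the window in all 5 libraries of each mark. H3K9ac was scattered, at 30%, 45.0% and 0% against 35.0% and 10%.

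**Figure D4:**
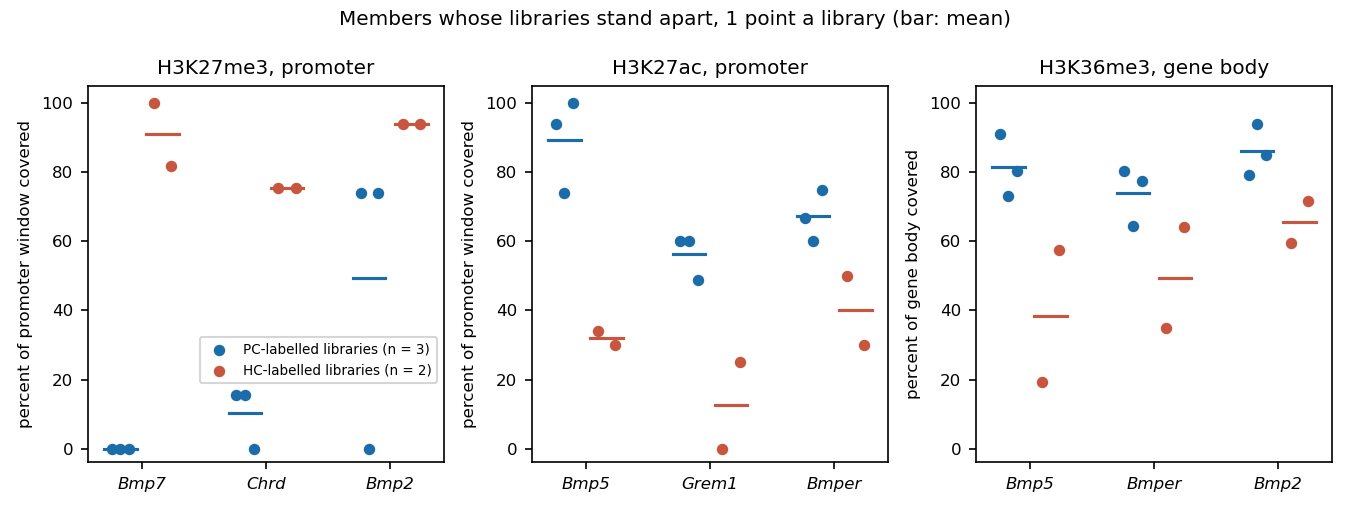
Percent covered in single libraries (points; blue PC-labelled, n = 3, red HC-labelled, n = 2; bar at the mean) for H3K27me3 and H3K27ac at promoters and H3K36me3 along gene bodies. At each gene shown the points of the labels do not overlap, with Bmp7 at 0% against 82.0% and 100% for H3K27me3 and Bmp5 at 74.1% to 100% against 30% and 34.1% for H3K27ac.

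Bmper (chr9:23223076-23485215), which encodes a secreted BMP-binding protein found in endothelium and cartilage, had lower cover of all 3 active marks in the HC-labelled libraries, without overlap in any. H3K27ac covered 66.9%, 60% and 75.0% against 50% and 30% (difference -27.3 points, SE 8.69, limma unadjusted p = 0.0169, adjusted p = 0.484). H3K4me3 covered 81.9%, 81.9% and 65.0% against 60% and 50% (difference -21.2 points, SE 7.27, limma unadjusted p = 0.019, adjusted p = 1), a direction that turned to 0.208 with a window of 1 kb on each side. H3K9ac covered 55.0%, 65.0% and 65.0% against 50% and 45.0%. None of these passed the adjusted threshold, and H3K27me3 stood at 100%, 46.9% and 86.9% against 100% and 100%.

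Nog (chr11:89300638-89302559) encodes noggin, which closes BMP ligands off from both receptor types and is needed for joints. Both gene ends carried H3K4me3, and the window spans both. H3K9ac covered 87.2%, 77.7% and 83.8% in the PC and 73.7% and 74.3% in the HC-labelled libraries, without overlap. H3K27me3 was 63.5%, 86.5% and 100% against 63.5% and 100%, and H3K4me3 lay between 83.8% and 87.2% in all 5 libraries. Fst (chr13:114452262-114458989) encodes follistatin, and its promoter was widely covered by each of the 4 marks. H3K4me3 and H3K27me3 covered 95.3% to 100% of its window in all libraries, and H3K27ac 85.0% to 95.3%, with overlap between labels.

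Counting promoters that held H3K4me3 together with H3K27me3 throughout a label gave 6 of 10 members in the PC libraries (Bmp4, Bmp6, Nog, Grem1, Bmper and Fst) and 9 of 10 in the HC-labelled ones, where Bmp2, Bmp7 and Chrd joined them. The H3K4me3 part of the count was partly fixed at Bmp2, Bmp7, Nog and Fst, whose windows were placed by that mark. Bmp2 was left out of the PC count by PC replicate 6 alone, at 0% H3K27me3. For Chrd the count depended on the start used. Around its inner start both marks were in every PC library, with H3K27me3 at 58.2%, 58.2% and 38.2%. Over all genes with H3K4me3 in every library of a label the share was 21.7% of 13369 in PC and 24.9% of 13461 in HC. Bmp5 had H3K4me3 and no H3K27me3 in all libraries, as did 68.6% and 69.5% of those genes. A mark had to be in 3 libraries to count throughout PC and in 2 to count throughout HC. The H3K27me3 lists also covered 63.7 to 92.8 Mb in PC against 98.1 and 99.0 Mb in HC. The criterion of both marks was thus easier to meet in HC, and no count at equal covered length is given. The counts and shares of the labels are therefore not like measures. The data are region lists of sorted cells, so both marks at 1 promoter can come from the same or from different cells.

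Along gene bodies, H3K36me3 covered much of 6 members, was lower at 2, and was at 0% in all 5 libraries at Nog and Grem1. Bmp5 was covered at 91.2%, 73.2% and 80.3% in PC replicates 4, 5 and 6 and at 19.2% and 57.6% in HC replicates 5 and 7. The labels did not overlap (difference -43.1 points, SE 13.2, limma unadjusted p = 0.0152, adjusted p = 0.566). At the far end of Bmp5, in a 4000 bp window, H3K36me3 covered 100%, 80.0% and 100% against 2.10% and 22.1%. Bmp2 was covered at 79.1%, 94.0% and 85.1% against 59.6% and 71.7%, also without overlap (difference -20.4 points, SE 7.97, limma unadjusted p = 0.0394, adjusted p = 0.734). Bmper (80.3%, 64.4% and 77.6% against 34.8% and 64.1%) and Bmp7 (86.3%, 76.3% and 77.4% against 60.8% and 70.8%) did not overlap either, and Bmp4, Bmp6, Chrd and Fst did. Both HC-labelled libraries lay below the PC libraries at 4 of the 8 members covered, against 9% of all genes, and the median difference was -14.2 points over the members and 2.05 over all genes. At equal covered length it was 3 of 8 against 4.15%, with medians of -11.1 and 6.85. No gene of 13688 was called by limma for H3K36me3 (0%), and unadjusted p-values under 0.05 were found for 381 genes with higher and 481 with lower cover. That split turned to 609 higher and 160 lower at equal covered length. No member was PC-only or HC-only for H3K36me3, where 25% of the body had to be covered (2.48% of 11461 genes were).

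H3K9me3 covered little of the long genes and was scattered in the short ones. It reached at most 10.9% of Bmp5, 4.58% of Bmp6 and 4.88% of Bmper in any library. Fst was covered at 0%, 88.1% and 40.6% in PC replicates 2, 3 and 6 and at 0% in both HC-labelled libraries, so the PC libraries differed among themselves as much as from the others. Nog had 83.2% in PC replicate 6 and 0% in the other 4 libraries. Bmp7 was covered at 2.21% and 0% in the HC-labelled libraries against 6.62% to 23.2% in the PC libraries. No gene of 10547 was called by limma (0%), and unadjusted p-values under 0.05 were found for 101 genes with higher and 633 with lower cover, none of them a member (104 and 204 genes at equal covered length). No member was PC-only or HC-only (5.75% of 2329 genes were).

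In the 100 kb flanks the mean H3K27ac cover was lower in the HC-labelled libraries at all 10 members, and both of those libraries lay below all 3 PC libraries at 8 of 10, against 13.8% of all genes. At equal covered length the means were still lower at 10 of 10, but the labels stayed apart at 5 of 10, against 9% of genes, while the median over all genes moved from -0.219 to 0.236 points. H3K27ac covered 2.42%, 3.33% and 4.34% of the flanks of Bmp2 in PC replicates 3, 5 and 8 and 0% in HC replicates 5 and 7 (difference -3.37 points, SE 0.627, limma unadjusted p = 0.000929, adjusted p = 0.362). Nog had 4.30%, 3.59% and 4.10% against 0.835% and 1.75% (difference -2.70 points, SE 0.637, limma unadjusted p = 0.00346, adjusted p = 0.385). Both genes thus had less acetylated flank in each HC-labelled library than in any PC library. Bmper had 4.95%, 4.21% and 5.35% against 1.21% and 2.73% (difference -2.87 points, SE 0.836, limma unadjusted p = 0.0103, adjusted p = 0.465), which turned to 0.986 with flanks of 50 kb. Bmp5 had 2.28%, 1.62% and 5.60% against 0% and 0.404% (difference -2.96 points, SE 1.11, limma unadjusted p = 0.0309, adjusted p = 0.603). Bmp6 had 17.4%, 10.2% and 8.34% against 3.64% and 5.25% (difference -7.55 points, SE 2.88, limma unadjusted p = 0.0335, adjusted p = 0.618). Bmp7 and Grem1 did not overlap, Fst was the lowest in PC at 0.808% to 0.909%, and Bmp4 and Chrd overlapped. No gene of 18655 was called by limma (0%), and unadjusted p-values under 0.05 were found for 253 genes with higher and 1066 with lower cover. That split turned to 1458 higher and 749 lower at equal covered length.

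**Figure D5:**
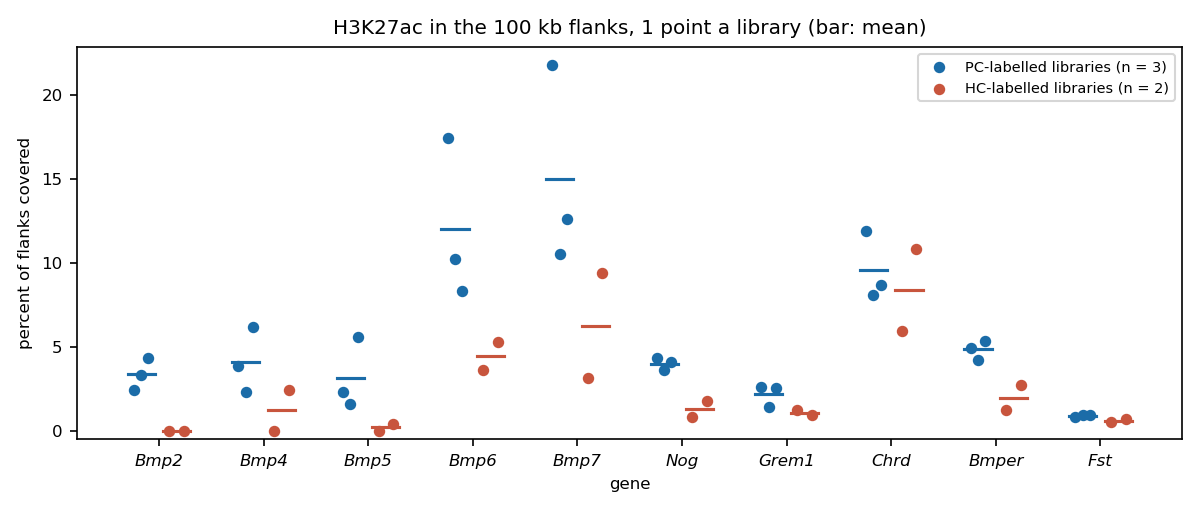
Percent of the 100 kb flanks on both sides of each gene covered by H3K27ac, 1 point a library (blue PC-labelled, n = 3, red HC-labelled, n = 2) with a bar at the mean. The red means lie below the blue ones at all 10 genes, and Bmp6, Bmp7 and Chrd have the highest cover.

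The H3K27ac difference was also resolved into bins of 200 bp over each gene and its flanks. Of 1873 bins covered in at least 1 library, 154 (8.22%) were covered in all 3 PC and neither HC-labelled library, against 3.96% over all chromosomes, and 5 (0.267%) in both HC-labelled and no PC library, against 1.80%. At equal covered length these were 45 of 1097 bins (4.10% against 3.68% over all chromosomes) and 5 (0.456% against 3.27%), so the first share came close to that of all chromosomes. Bmper held 55 of the 154 bins and Bmp5 31. In Bmper they gathered inside the gene, with the longest run of 1000 bp at chr9:23350001-23351000, 126925 to 127925 bp after the start, and others in the stretch around it. A further group lay upstream of Bmper, with 800 bp at chr9:23142001-23142800, -81075 to -80275 bp from the start. In Bmp5 the longest run was 1400 bp at chr9:75871801-75873200, inside the gene 96436 to 97836 bp after the start, and runs of 1000 and 800 bp lay between 2236 and 5036 bp after it. Bmp2 had 800 bp at chr2:133498201-133499000, -53958 to -53158 bp from the start, and Bmp6 had 1000 bp at chr13:38311201-38312200, -34515 to -33515 bp from the start. At Grem1 the 800 bp lay inside the gene at chr2:113756801-113757600. These runs come from the lists at full length. At equal covered length such bins fell from 55 to 11 in Bmper and from 31 to 10 in Bmp5. In Bmp6 they went from 12 to 10. They fell from 8 to 1 in Bmp2 and from 4 to 0 in Grem1, so the 800 bp runs at Bmp2 and Grem1 were not kept. Regions are assigned here by position alone, and which gene they act on was not measured.

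H3K27me3 in the flanks showed no called member, against 1.86% of 17229 genes (312 higher and 9 lower, and 83 and 24 at equal covered length). Bmp2 had 1.21%, 0.808% and 1.21% in the PC and 0% in both HC-labelled libraries, without overlap (difference -1.08 points, SE 0.428, limma unadjusted p = 0.0399, adjusted p = 0.29), while its promoter was more covered there. Of 274 bins of 800 bp covered near the members, 21 (7.66%) were covered in both HC-labelled and no PC library, against 7.79% over all chromosomes, and at equal covered length 23 of 222 (10.4%), against 5.11%. Bmp7 held 10 of them, 7200 bp of that at the gene start, and 2400 bp each lay in Chrd and in Bmp4, where the run covered chr14:46384801-46387200, 3469 to 5869 bp after the start. Along the whole Bmp4 body H3K27me3 covered 37.4%, 37.4% and 48.5% in the PC and 100% and 82.1% in the HC-labelled libraries, without overlap and not tested.

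The gene most like each member over all 30 library values (promoter percent for 4 marks, body percent for H3K36me3 and H3K9me3) was found by the mean absolute difference. Bmp7 was nearest to Serpine2, at 6.25 percentage points, Bmp6 to Zbtb7c at 7.42, Bmp4 to Tmem243 at 7.49 and Bmper to Wnt11 at 7.91. Bmp5 was nearest to Ypel2 at 8.73, Grem1 to Srcin1 at 8.91, Chrd to Zmym3 at 8.96, Bmp2 to Tmem164 at 9.65, Nog to Fgf11 at 10.3 and Fst to Hoxa9 at 10.4. No member had another member as its nearest gene, which says little about the family, since members are 10 of 21887 protein-coding genes. Within the family Bmp2 and Bmp7 were the closest pair, at 13.7 points, and Chrd stood farthest from its nearest member, 22.4 points from Bmp7.

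A wider list of 66 pathway genes was counted in full, with 20 other ligands, 23 other antagonists and modulators, 10 receptors, 6 Smads and 7 targets. Of these, 1 was called by limma in the 8 comparisons, the type I receptor gene Acvr1c, which encodes ALK7. H3K27me3 covered its promoter at 100%, 97.4% and 100% in the PC and at 82.6% and 80.0% in the HC-labelled libraries (difference -17.8 points, SE 1.35, limma adjusted p = 0.0208), 1 of 30 list members tested for that mark, a share near the 3.85% of all genes. No gene of the list was HC-only for any mark. The PC-only genes were Gdf2, Gdf7 and Chrdl2 for H3K9ac (3 of 55 list members marked in at least 2 libraries, against 1.27% of all genes in either direction) and Vwc2 for H3K27ac (1 of 53, against 1.77%). Gdf15 was PC-only for H3K27me3 (1 of 30, against 7.26%) and Sost for H3K9me3 (1 of 9, against 5.75%), and these counts are a description. Chrdl2, a chordin-like antagonist, had H3K9ac at 20%, 25% and 35.0% against 0% and 0%. Vwc2, a secreted BMP-binding protein of brain, had H3K27ac at 51.7%, 36.7% and 51.7% against 0% and 1.68%, the last being under the minimum overlap. Sost, the sclerostin gene, had H3K9me3 on 51.4%, 51.4% and 52.6% of its body against 0% and 0%. For H3K36me3 the median difference was -2.95 points over the 47 list members tested and 2.05 over all genes, and for H3K9ac -4.17 points over 55 and -1.81 over all genes. In the other comparisons the list stood nearer to all genes. At promoters it was -1.69 against -0.833 for H3K4me3, -2.5 against -2.5 for H3K27ac and 0 against 0 for H3K27me3. Bodies gave -3.88 against -3.19 for H3K9me3. Flanks gave -0.267 against -0.219 for H3K27ac and 0.135 against 0.269 for H3K27me3.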

How the data were processed

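Chromatin immunoprecipitation libraries of 6 histone marks were analysed from 1 list of region coordinates per library, as the authors deposited them. The values are other than counts: a deposited list holds only positions (chromosome, start, end) and carries no score column. Per the submitters' processing notes, FastQC, Picard and build mm10 were used. Aligner, region caller and any use of IgG in calling: not given in the sources used here. The 11 IgG samples were not analysed here. Per the labels' protocols, cells were sorted by flow cytometry and handled with low-input Diagenode kits. Region lengths were multiples of 200 bp (H3K4me3, H3K9ac, H3K27ac) or 800 bp (the other 3 marks). The authors' intersected lists were not used here. The design text names 5 marks and the labels 6.

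Covered percent was computed for 21887 protein-coding genes of the RefSeq table (GRCm38.p6) at the promoter (2 kb on each side of the 5′ end where RefSeq gives a strand, otherwise of the end or ends with H3K4me3), the body and the flanks (100 kb on each side, outside the promoter window). limma 3.58.1 in R 4.3.3, with trend and robust settings and Benjamini-Hochberg adjustment at 0.05, compared 3 PC with 2 HC libraries over genes covered in at least 2 libraries. It was tested on simulated data. Python 3.11.15 and pandas 2.3.3 did the rest. The 10 members and all gene lists were chosen with earlier results of these data known. A member's test is printed where its unadjusted p was under 0.05 or the member was PC-only or HC-only, and genes of the wider list are named where their adjusted p was under 0.05 or they were PC-only or HC-only. Alternatives changed the list length, scale, gene filter, window, gene start, flank, region length and minimum overlap, and left out each library. For equal covered length, the shortest regions of each list were dropped until it covered no more than the shortest list of its mark, and for H3K27me3 this was repeated over autosomal regions and genes alone.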

Additional observations from a re-analysis of the deposited data

How the results depend on the processing

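Alternatives on the start of the RefSeq promoter table and on bins at equal covered length were chosen after seeing the data. Of 19 member differences recomputed 214 times, 212 kept their direction; Bmper turned to 0.208 points for H3K4me3 (1 kb window) and 0.986 for flank H3K27ac (50 kb flanks). The cause was not tested. Genes called for H3K4me3 (1) became 0 at equal covered length, 2 with gene ends, 3 with genes covered in at least 1 library, 0 on the log2 scale and 169 in a 1 kb window. For H3K9ac (1) they became 0 on the log2 scale and 268 in the 1 kb window, which called Bmp7, 1 member against 0. For H3K27ac (3) they became 0 at equal length, 0 on the log2 scale, 1 with regions of at least 3 grid bins and 181 in the 1 kb window. For H3K27me3 (194) they became 33 with genes covered in 1 library, 346 on the log2 scale, 357 with at least 3 bins and 302 in the 1 kb window. Members called were then 0 (genes covered in 1 library) or 2, Bmp7 and Chrd (3 bins; 1 kb window). H3K9me3 bodies went from 0 to 117 on the log2 scale. Flank H3K27me3 (321) became 60 for autosomal genes at equal length, 107 at equal length and 187 on the log2 scale. PC-only and HC-only genes became 28 for H3K4me3 at equal length (from 56), and for H3K9me3 (134) 87 at equal length, 348 at 10% of the body and 80 at 50%; for H3K27me3, 2 members (Bmp7, Chrd) in the 1 kb window and 2 at a minimum overlap of 1000 bp. H3K27ac bins near members (154) became 45 at equal length.

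Leaving out single libraries gave 0 to 14 genes for H3K4me3, 0 to 0 for H3K9ac, 0 to 0 for H3K27ac, 126 to 460 for H3K27me3, 0 to 392 for H3K9me3, 0 to 1 for flank H3K27ac and 0 to 564 for flank H3K27me3. Members called for H3K27me3 were Bmp7 and Chrd without PC replicate 2 or 8, and Bmp2 and Bmp7 without PC replicate 6, all higher in the HC-labelled libraries. Leaving out HC replicate 3 left HC replicate 2 alone. Bmp6 and Fst were lower there, at 92.9% and 95.3% against 100% in each PC library. PC-only and HC-only genes ranged from 75 to 180 (H3K4me3), 280 to 451 (H3K9ac), 358 to 946 (H3K27ac), 490 to 789 (H3K27me3), 392 to 605 (H3K36me3) and 234 to 511 (H3K9me3), and members from 0 to 1 for H3K27ac (Grem1 without HC replicate 7), 0 to 1 for H3K36me3 (Bmp6 without PC replicate 4, Bmp5 without HC replicate 7) and 0 to 1 for H3K9me3 (Fst without PC replicate 2). Bins near members ranged from 176 to 283 for H3K27ac and from 22 to 45 for H3K27me3. A PC-only or HC-only gene, or such a bin, needs every library of 1 label and none of the other. Leaving out a library can therefore only add to these counts, so their rise was fixed in advance. A lone library was assumed to vary like the others.

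H3K9ac shared replicate numbers 2 and 3 between labels. Deviations of same-numbered libraries correlated at -0.027 and 0.060 over 13344 genes. Such values cannot tell whether these libraries shared a litter or a batch, and the labels do not say what the number means. With the replicate block limma called 0 genes against 1, and unadjusted p-values under 0.05 were found for 907 genes with higher and 676 with lower cover. Depth is unknown, so absence of a region is not absence of a mark.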
